A study of Homo sapiens with 4 samples.

Results

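The chromatin contacts of 9 genes tied to neuroblastoma were followed in SH-SY5Y cells, an established neuroblastoma line. The genes were the oncogenes MYCN, MYC, ALK, RET, LIN28B, LMO1 and CCND1, the inherited risk gene BARD1, and TERT, which encodes the catalytic subunit of telomerase. Contacts had been mapped by Micro-C, which cuts crosslinked chromatin with micrococcal nuclease and joins fragments that lay close together, and were counted between bins of 50 kb. The members were all listed pairs of bins with at least 1 bin overlapping the body of one of these genes, which gave 126 of 89239 pairs. Of these, 32 were contacts within a bin and 94 were contacts between bins, and no pair belonged to more than 1 gene. There were 2 libraries labelled control and 2 of cells with a lasting knockdown of TDP-43 by a lentiviral shRNA (shTDP-43). The protocol also lists a control shRNA (shNC), without naming the libraries it went into. It gives puromycin selection for the knockdown cells, and does not say whether either group was a single clone or whether the libraries came from separate cultures. The p-values therefore measure only the spread between these libraries. Contact counts carry no RNA, so neither the neuroblastoma identity of the cells nor the knockdown itself could be checked in them. The comparison asked which contacts of these genes differed when TDP-43, a DNA- and RNA-binding protein, was depleted.

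MYCN and MYC are related transcription factors that pair with MAX at E-box sequences and drive growth. Amplification of MYCN marks high-risk neuroblastoma, and SH-SY5Y is a line without that amplification. ALK and RET are receptor tyrosine kinases of the developing sympathetic lineage, LIN28B is an RNA-binding protein that blocks maturation of the let-7 microRNAs, and LMO1 is a transcriptional cofactor. CCND1 encodes cyclin D1, which drives entry into the cell cycle, and BARD1 is the partner of BRCA1 in DNA repair. A contact within a bin joins fragments less than a bin apart, and its count follows local accessibility to the nuclease, copy number and mappability as well as folding.

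For 7 of the 9 genes RefSeq (GRCh38.p14) supplied the 250 bases before the start of transcription. Those of MYCN, RET and TERT are shown because contacts within their start bins passed the test below. That of ALK is shown because most of its differing pairs were higher, although its start bin did not pass. Sequences run 5′ to 3′ on the strand of the gene. Capitals mark every match, on either strand, to GGGCGG (the GC box) and CACGTG (the E-box).
MYCN, chr2:15940300-15940549, plus strand: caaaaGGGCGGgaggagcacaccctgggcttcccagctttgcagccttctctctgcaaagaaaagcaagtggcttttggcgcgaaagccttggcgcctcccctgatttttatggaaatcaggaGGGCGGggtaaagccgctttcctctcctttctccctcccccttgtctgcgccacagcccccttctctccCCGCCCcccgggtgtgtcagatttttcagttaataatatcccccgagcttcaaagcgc
RET, chr10:43076819-43077068, plus strand: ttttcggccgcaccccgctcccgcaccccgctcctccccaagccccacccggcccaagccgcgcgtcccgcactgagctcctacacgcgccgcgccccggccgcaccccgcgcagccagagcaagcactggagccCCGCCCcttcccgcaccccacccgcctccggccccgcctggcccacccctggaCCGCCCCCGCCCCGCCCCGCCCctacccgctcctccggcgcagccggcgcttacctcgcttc
TERT, chr5:1295069-1295318, minus strand: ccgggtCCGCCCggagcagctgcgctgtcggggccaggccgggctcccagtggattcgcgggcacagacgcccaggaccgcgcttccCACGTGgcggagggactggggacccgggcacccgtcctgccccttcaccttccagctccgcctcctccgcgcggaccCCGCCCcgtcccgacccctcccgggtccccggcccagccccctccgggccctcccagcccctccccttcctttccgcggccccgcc
ALK, chr2:29921587-29921836, minus strand: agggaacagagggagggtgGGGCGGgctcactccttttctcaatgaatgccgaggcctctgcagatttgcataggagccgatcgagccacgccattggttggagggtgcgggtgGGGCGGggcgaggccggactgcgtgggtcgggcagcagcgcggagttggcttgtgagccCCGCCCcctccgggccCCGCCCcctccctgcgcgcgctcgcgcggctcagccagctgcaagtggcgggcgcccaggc
The E-box was found once, in the TERT window, 163 bases before the start, and 6.34% of all 35116 windows of this length held it. GC boxes numbered 3 at MYCN, 5 at RET, 2 at TERT and 4 at ALK, and 42.6% of all windows held at least 1. GC content was 57.2% at MYCN, 79.6% at RET, 78.8% at TERT and 71.6% at ALK, against a median of 58.0% over all windows. TGTGTG, a DNA form of the repeat that TDP-43 binds in RNA, was absent from these 4 windows. It occurred once each in the windows of LIN28B and LMO1, and 14.3% of all windows held it. Contact bins of 50 kb are much wider than these windows, so the counts below do not resolve them.

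Over the listed pairs the libraries held 115168160 to 163147992 contacts. Levels are given as CPM, contact counts scaled to library size with TMM factors. All bins have the same width, but a level is not corrected for accessibility, copy number or mappability. Differences are log2 ratios (log2 fold changes) of knockdown to control, from edgeR's quasi-likelihood test with Benjamini-Hochberg adjustment over all 89239 pairs at a threshold of 0.05. Across all within-bin pairs the fold change fell with the level of contact, from a median of 0.27 in the class with a median control level of 1.60 CPM to 0.10 at 6.72 CPM, -0.23 at 60.2 CPM and -0.37 at 104 CPM. A second fit, which took most of this trend out by a loess curve per library, is therefore given beside the results ("trend removed"). The authors' deposited table, which is on that scale, also gave 21 calls for the 126 pairs. In the second fit the weakest class kept a median of 0.18, against -0.03 to 0.06 in the other classes. Rises of the weakest pairs are therefore not free of the level effect in either fit. Only abundant pairs are listed, so a pair weak in 1 group can be listed through the other. That favours a rise where control is weak and a fall where the knockdown is weak.

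With TMM scaling 23 of the 126 pairs differed, 15 lower and 8 higher in the knockdown, in 6 of the 9 genes. That was 18.3% of the pairs, against 16.2% of all listed pairs, so the share was near the background. Lower pairs made up 11.9% against a background of 10.5%, and higher pairs 6.35% against 5.76%. With the trend removed 21 pairs differed, 7 lower and 14 higher, or 5.56% and 11.1% against backgrounds of 6.01% and 4.96% (5.97% and 5.03% in the authors' deposited table). Together these were 16.7% of the pairs against 11% of all pairs. Within bins, 13 of 32 pairs differed with TMM scaling (8 lower, 5 higher), where 21.7% of all within-bin pairs did (14.3% lower, 7.4% higher). Without the trend it was 14 of 32 (2 lower, 12 higher), against 13% (5.14% lower, 7.87% higher), or 13.1%, 5.12% and 8% in the authors' deposited table. Between bins, 10 of 94 differed with TMM scaling (7 lower, 3 higher), against 9.6% (5.84% lower, 3.76% higher). Without the trend these were 7 of 94 (5 lower, 2 higher), against 8.49% (7.07% lower, 1.42% higher), or 8.43%, 7% and 1.43% in the authors' deposited table. Of the pairs, 14 differed in the same direction under both scalings and 1, within LMO1, in opposite directions. Control and knockdown libraries stood apart in 74 of the 126 pairs, as in 56.1% of all listed pairs. The median log2 ratio was -0.04 over the member pairs and 0.02 over all pairs (-0.07 and 0.01 with the trend removed). By gene, the pairs that differed were 8 of 40 at ALK (7 higher, 1 lower), 5 of 22 at RET, 3 of 20 at CCND1, 3 of 4 at TERT and 2 of 13 at LMO1 (all lower), and 2 of 15 at MYCN (1 in each direction). None of 3 at MYC, 6 at LIN28B and 3 at BARD1 differed. Without the trend the 14 higher pairs were 11 at ALK, 2 at LMO1 and 1 at MYCN. ALK supplied 10 of the 12 higher within-bin pairs, so the excess of higher pairs rested mostly on this 1 gene. The 7 lower pairs were 3 at TERT, 2 at RET and 1 each at LMO1 and CCND1. With either knockdown library left out fewer pairs passed, both among the pairs of the 9 genes and among all listed pairs.

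**Figure D1:**
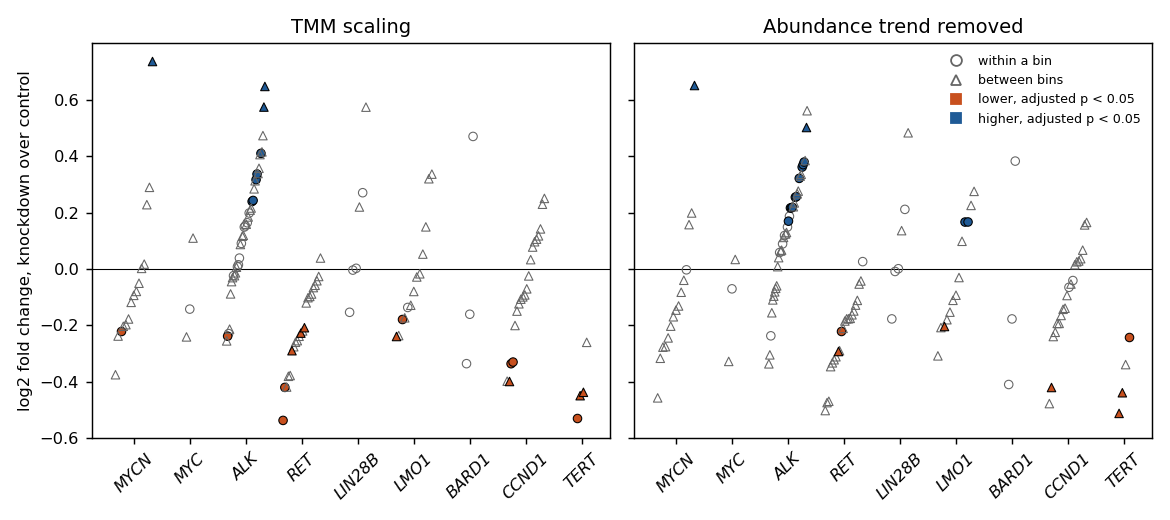
Log2 fold change (knockdown over control) of each of the 126 listed pairs, grouped by gene along the x axis, with TMM scaling on the left and the abundance trend removed on the right. Circles are contacts within a bin, triangles contacts between bins, and filled symbols passed the test (orange lower, blue higher). RET and TERT lie mostly below 0 and ALK mostly above it in both panels, while the within-bin circles of LMO1 move from below 0 to above it.

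The level of contact differed widely between the start bins in the control libraries. RET had the highest, with 170 and 179 CPM, followed by TERT (82.0 and 91.3), LMO1 (82.4 and 82.8), CCND1 (71.4 and 79.2) and MYCN (55.7 and 56.4). The start bins of MYC (25.7 and 26.5 CPM), ALK (19.7 and 23.1), LIN28B (13.2 and 13.6) and BARD1 (10.5 and 10.4) were lower. TERT and LMO1 overlapped in this order, and CCND1 stayed below both in its 2 libraries. In the knockdown the order was RET, LMO1, TERT, CCND1, MYCN, MYC, ALK, LIN28B and BARD1, in which TERT and CCND1 overlapped (61.2 and 58.9 CPM against 59.8 and 59.5). So did MYC and ALK, since MYC had 26.5 and 21.0 CPM and ALK 21.7 and 21.4.

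**Figure D2:**
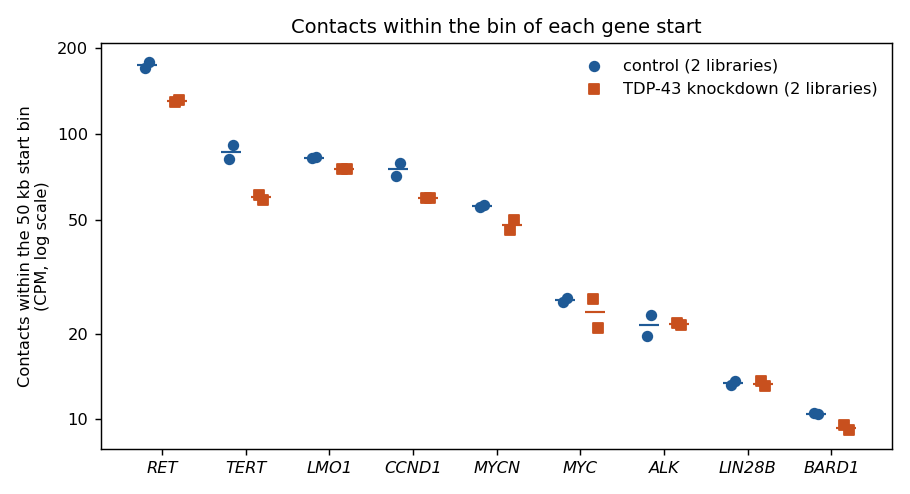
Contacts within the 50 kb bin that holds the start of each gene, in CPM on a log axis. Circles are the 2 control libraries and squares the 2 knockdown libraries, and lines are their means. The 5 genes on the left have control levels from 55.7 to 179 CPM and knockdown levels below them. The groups overlap at MYC, ALK and LIN28B.

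Among the receptor genes, contacts fell across RET with TMM scaling. RET, which encodes the receptor of the GDNF family ligands, spans 53.3 kb of chromosome 10 (43077069 to 43130351) and 2 bins. Within the start bin (43050001 to 43100000) the control libraries had 170 and 179 CPM and the knockdown libraries 129 and 132 CPM. Both knockdown libraries were well below both controls, and the log2 ratio was -0.42 (SE 0.06, adjusted p = 2.48e-10, edgeR). It was 0.03 with the trend removed (adjusted p = 0.644), so it did not stand apart from bins of like level. Within the second bin (43100001 to 43150000), which also holds part of CSGALNACT2, contacts were 95.3 and 104 CPM in control and 69.4 and 68.3 CPM in the knockdown. Again the groups did not overlap, and the log2 ratio was -0.54 (SE 0.06, adjusted p = 1.86e-15). That bin also passed with the trend removed, at -0.22 (adjusted p = 1.51e-06), and kept its call in all 9 alternative fits. These 9, here and below, are not separate checks. The fit without a filter repeats the main fit, and the authors' deposited table is on the scale of the fit with the trend removed. Contacts between the 2 bins of the gene went from 13.4 ± 1.85 to 11.0 ± 1.01 CPM (SD, n = 2; log2 ratio -0.29, SE 0.09, adjusted p = 0.0110; -0.29 and adjusted p = 0.0204 with the trend removed).

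The RET start bin also had 2 prominent distant partners. Its contacts with the bin 200 kb upstream of it (42850001 to 42900000) reached 18.0 and 15.8 CPM in control, above 99.9% of the 2856 listed pairs at that distance. Those with the bin 100 kb upstream (42950001 to 43000000) reached 17.6 and 18.7 CPM, also above 99.9% of 7367 pairs. Neither partner holds a protein-coding gene. In the knockdown they were 13.6 and 15.2 CPM at 200 kb (log2 ratio -0.23, SE 0.08, adjusted p = 0.0289) and 15.5 and 15.9 CPM at 100 kb (-0.21, SE 0.07, adjusted p = 0.0373). All 4 knockdown values lay below the control values of their own pair. Both contacts kept their rank as the strongest of the start bin, and neither passed with the trend removed (adjusted p = 0.0671 and 0.0972) or in DESeq2 (0.0963 and 0.0707). The call at 200 kb was lost without control library 1 (log2 ratio -0.14, adjusted p = 0.259) and without knockdown library 1 (-0.15, 0.505). The call at 100 kb was lost without control library 2 (-0.16, 0.160), knockdown library 1 (-0.19, 0.329) and knockdown library 2 (-0.23, 0.18). Contacts between the bins of the gene lost theirs without control library 2 (-0.14, 0.359) and knockdown library 2 (-0.20, 0.346), and in DESeq2 (0.0741). The remaining 17 pairs of RET did not pass, with BMS1, RASGEF1A and HNRNPF among the genes in the partner bins. Of all 22 pairs 21 had a negative log2 ratio, over a median of -0.22 (-0.20 with the trend removed). In the 20 listed flanking bins, up to 500 kb on either side, 10 within-bin pairs were lower and 1 higher, with a median of -0.15 (-0.03 with the trend removed).

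At ALK, 7 of the 8 pairs that differed with TMM scaling were higher in the knockdown. The gene, the receptor of the ALKAL ligands, spans 729 kb of chromosome 2 (29192774 to 29921586, minus strand) and 16 bins, all of which were listed. Within-bin contacts were higher in 5 of the 16 bins and lower in 1 with TMM scaling, where 7.4% of all within-bin pairs were higher. With the trend removed 10 of the 16 were higher and none lower, against a background of 7.87% higher. The log2 ratio was above 0 in 13 of the 16 bins, and in 15 with the trend removed.

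Within the bin 200 kb into the gene (29700001 to 29750000) contacts were 17.0 and 15.7 CPM in control and 20.6 and 20.7 CPM in the knockdown, with no overlap. The log2 ratio was 0.34 (SE 0.07, adjusted p = 0.000109), or 0.37 with the trend removed (adjusted p = 5.94e-05), and this bin kept its call in all 9 alternative fits. Its neighbour (29750001 to 29800000) had 17.7 and 18.6 CPM in control and 23.6 and 21.7 CPM in the knockdown (0.32, SE 0.07, adjusted p = 0.000168). Contacts between these 2 bins went from 3.31 and 2.82 CPM to 4.7 and 4.44 CPM (0.57, SE 0.15, adjusted p = 0.00329). In each of these pairs both knockdown libraries exceeded both controls. The remaining increases within a bin were at 29650001 to 29700000 (7.02 ± 0.956 to 9.31 ± 1.47 CPM, SD, n = 2; log2 ratio 0.41, adjusted p = 0.00212), 29350001 to 29400000 (0.24, adjusted p = 0.00266) and 29850001 to 29900000 (0.24, adjusted p = 0.0213). Without the trend these 5 pairs also passed, at 0.36 (29750001), 0.50 (29700001 to 29750001), 0.38 (29650001), 0.32 (29350001) and 0.26 (29850001). DESeq2 called 6 pairs of ALK and did not call 29850001 (adjusted p = 0.136). The start bin itself (29900001 to 29950000) had 19.7 and 23.1 CPM in control and 21.7 and 21.4 CPM in the knockdown. Its groups overlapped, and the log2 ratio was 0.01 (SE 0.07, adjusted p = 0.957). Contacts of the start bin with a bin 100 kb upstream of it, which holds no protein-coding gene, were weak in control. Listing through the knockdown level favours a rise there. These contacts went from 1.60 ± 0.218 to 2.50 ± 0.461 CPM (0.65, SE 0.21, adjusted p = 0.0213). That call was lost in DESeq2, with the trend removed, without control library 1 (0.50, adjusted p = 0.110) and without either knockdown library (0.82, 0.0518; 0.44, 0.422).

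The last bin of ALK (29150001 to 29200000) did not pass under either scaling (log2 ratio -0.23, adjusted p = 0.0642; -0.24, 0.0828 with the trend removed). The bin before it passed as lower with TMM scaling only. Within the bin 700 kb into the gene (29200001 to 29250000), the most contact-rich of the gene, contacts were 92.2 and 98.4 CPM in control and 79.7 and 82.0 CPM in the knockdown. Both knockdown libraries were lower, with a log2 ratio of -0.24 (SE 0.05, adjusted p = 0.000465). With TMM scaling 87.5% of all within-bin pairs at 50 CPM or more in control were lower. In this pair the sign turned once the trend was removed (0.09, adjusted p = 0.0887). It no longer passed without knockdown library 1 (-0.22, adjusted p = 0.18) or 2 (-0.26, 0.0721). Several of the increases were also lost with fewer libraries. Without knockdown library 1 these were the bins at 29350001 (0.27, adjusted p = 0.0512), 29750001 (0.25, 0.108) and 29850001 (0.16, 0.469) and the pair joining 29700001 to 29750001 (0.53, 0.128). Without knockdown library 2 they were 29350001 (0.21, 0.155) and 29650001 (0.24, 0.372), and without control library 2 they were 29650001 (0.28, 0.0723) and 29850001 (0.14, 0.292). Left with a single knockdown library, ALK had 2 pairs (without library 1) or 4 pairs (without library 2) past the threshold. In the 20 flanking bins 7 within-bin pairs were lower and 1 higher with TMM scaling, and 1 lower and 8 higher with the trend removed. Over all within-bin pairs 7.87% were higher with the trend removed, so the rise on that scale was not limited to the gene. The median log2 ratio was -0.01 in the flanks and 0.15 in the gene, or 0.07 and 0.22 with the trend removed. The median control level was 31.5 CPM in the flanks and 20.9 CPM in the gene.

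**Figure D3:**
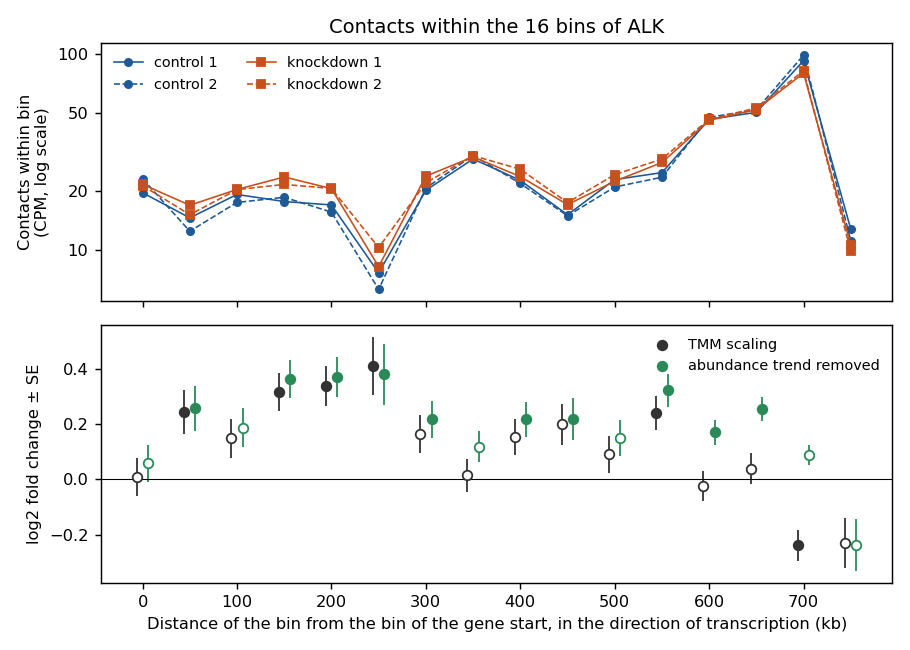
Contacts within the 16 bins of ALK, by distance from the bin of the gene start in the direction of transcription (kb). The upper panel gives CPM in each library on a log axis, and the lower panel the log2 ratio ± SE with TMM scaling (black) and with the abundance trend removed (green), filled where the test passed. The first bin lies at 0, the bins from 50 to 250 kb lie above 0 on both scales, and the bin at 700 kb lies below 0 with TMM scaling and above 0 with the trend removed.

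At MYCN the contacts of the gene's own bin and of a distant partner moved in opposite directions. MYCN lies on chromosome 2 (15940550 to 15947004) within the bin at 15900001 to 15950000, which also holds the antisense gene MYCNOS and the noncoding MYCNUT. Contacts within it were 55.7 and 56.4 CPM in control and 46.2 and 50.1 CPM in the knockdown. Both knockdown libraries were lower (log2 ratio -0.22, SE 0.06, adjusted p = 0.00171), but with the trend removed the change was 0.00 (-0.00279, adjusted p = 0.978). Without knockdown library 1 the log2 ratio was -0.16 (adjusted p = 0.323). Contacts with the bin 300 kb downstream (16200001 to 16250000), which holds no protein-coding gene, were 1.69 and 1.49 CPM in control and 2.30 and 3.00 CPM in the knockdown. The counts behind them were 259 and 230 in control and 278 and 446 in the knockdown. The log2 ratio was 0.74 (SE 0.21, adjusted p = 0.00619), and 0.65 with the trend removed (adjusted p = 0.0243). Knockdown library 2 was the higher of the pair, and without it the log2 ratio was 0.53 (adjusted p = 0.302). In control this contact was weak for its distance, above 7.57% of 1282 listed pairs. Only abundant pairs are listed, so a pair this weak in control can be listed through its knockdown level, which favours a rise.

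The other 13 pairs of MYCN did not pass. One of them joins MYCN to the bin of DDX1, a helicase gene that is often amplified together with MYCN, 300 kb away. It had 2.84 and 2.25 CPM in control and 2.12 and 1.82 CPM in the knockdown. The knockdown libraries were the lower ones, without passing the test (log2 ratio -0.37, SE 0.20, adjusted p = 0.208). The farthest listed partner, the bin of CYRIA at 600 kb, had 3.43 and 3.84 CPM in control and 4.83 and 3.71 CPM in the knockdown, with overlapping groups. In the 20 flanking bins 7 within-bin pairs were lower and none higher with TMM scaling, and none in either direction with the trend removed (0 by edgeR). MYC, on chromosome 8 (127735434 to 127742951), had 3 listed pairs, and none passed in edgeR, in DESeq2 or with the trend removed (1 and 0 had an unadjusted p under 0.05 in edgeR before and after removal of the trend). Contacts within its bin were 25.7 and 26.5 CPM in control and 26.5 and 21.0 CPM in the knockdown. Knockdown library 1 lay at the control level and knockdown library 2 below it, so the groups overlapped (log2 ratio -0.14, SE 0.07, adjusted p = 0.135). Without knockdown library 1 that value was -0.32 (adjusted p = 0.0186) and without control library 1 it was -0.18 (adjusted p = 0.0418).

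**Figure D4:**
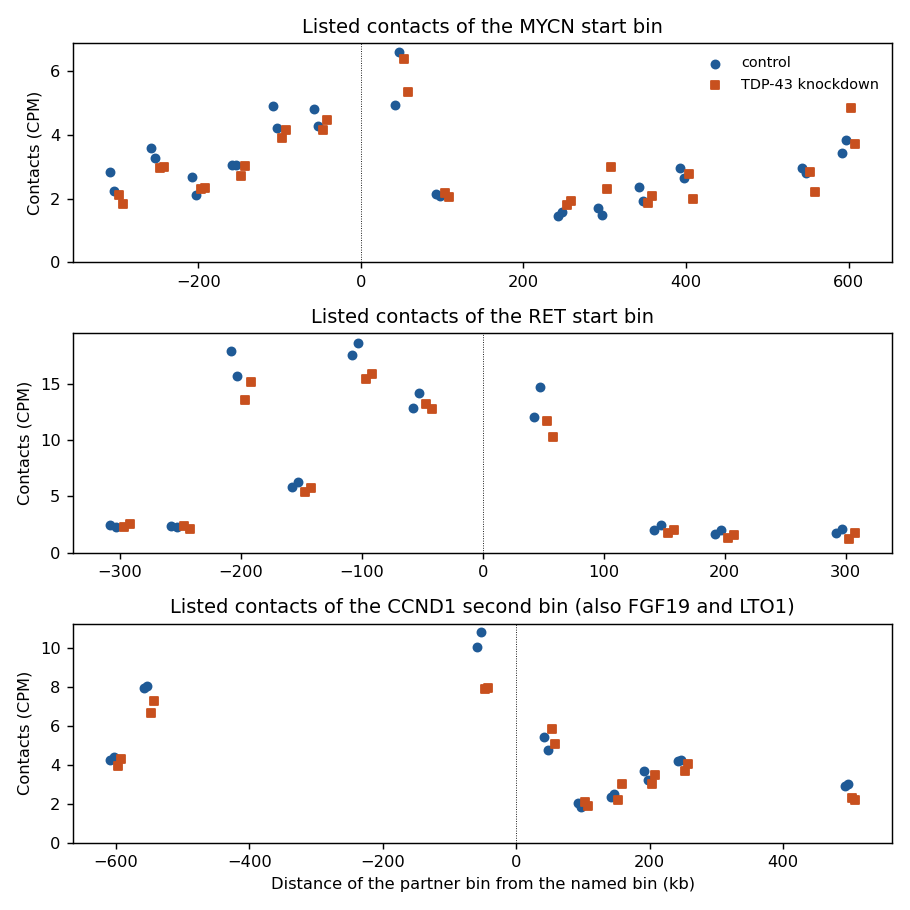
Listed contacts between a named bin and its partners, in CPM, by distance of the partner (kb), for the start bins of MYCN and RET and the second bin of CCND1. Circles are the 2 control libraries and squares the 2 knockdown libraries, and partners that the deposited table does not list are not drawn. RET shows 2 tall partners 200 kb and 100 kb upstream, and CCND1 one 550 kb upstream. At MYCN the partner 300 kb downstream is the one pair that passed the test as higher.

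CCND1 had lower contacts in and between both of its bins. It lies on chromosome 11 (69641156 to 69654474), with its start in the bin at 69600001 to 69650000 and its end in the next, which also holds LTO1 and the growth factor gene FGF19. Contacts within the start bin were 71.4 and 79.2 CPM in control and 59.8 and 59.5 CPM in the knockdown (log2 ratio -0.34, SE 0.06, adjusted p = 3.23e-07). In the second bin they were 80.8 and 83.6 CPM in control and 66.9 and 64.0 CPM in the knockdown (-0.33, SE 0.05, adjusted p = 4.18e-07). The groups were apart in both bins, but with the trend removed neither passed (-0.06, adjusted p = 0.303; -0.04, adjusted p = 0.546). Contacts joining the 2 bins were 10.0 and 10.8 CPM in control and 7.91 and 7.92 CPM in the knockdown. This pair fell under both scalings, by 0.40 on the log2 scale with TMM (SE 0.10, adjusted p = 0.00123) and by 0.42 with the trend removed (adjusted p = 0.00196), and kept its call in all 9 alternative fits. The strongest distant partner was the bin at 69100001 to 69150000, without a protein-coding gene. Its contacts with the second bin, at 550 kb, were 7.96 and 8.04 CPM in control, above 99.4% of the 174 listed pairs at that distance, and 6.65 and 7.26 CPM in the knockdown. Its contacts with the start bin, at 500 kb, were 6.83 and 7.75 CPM in control and 7.10 and 6.52 CPM in the knockdown. Neither differed beyond the spread between libraries by the test (log2 ratios -0.20 and -0.10, adjusted p = 0.206 and 0.603). Contacts with MYEOV, TPCN2, FGF4, FGF3 and ANO1, genes in partner bins, did not pass either. In the 20 flanking bins 17 within-bin pairs were lower and none higher with TMM scaling (median log2 ratio -0.28), and 2 were lower with the trend removed (median -0.00423).

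TERT differed in 3 of its 4 listed pairs, each lower in the knockdown under both scalings. The gene lies on chromosome 5 (1253167 to 1295068, minus strand), within 1 bin (1250001 to 1300000). Contacts within that bin were 82.0 and 91.3 CPM in control and 61.2 and 58.9 CPM in the knockdown. Both knockdown libraries were more than 20 CPM below the lower control, and the log2 ratio was -0.53 (SE 0.06, adjusted p = 4.48e-15), or -0.24 with the trend removed (adjusted p = 4.19e-07). Contacts with the adjoining bin of the amino acid transporter genes SLC6A18 and SLC6A19 were 14.1 and 14.2 CPM in control and 9.98 and 10.9 CPM in the knockdown (-0.44, SE 0.09, adjusted p = 2.29e-05; -0.44 with the trend removed, adjusted p = 0.000125). Contacts with the bin of CLPTM1L, on the other side, were 6.16 and 5.26 CPM in control and 4.08 and 4.28 CPM in the knockdown (-0.45, SE 0.13, adjusted p = 0.00975; -0.51 with the trend removed, adjusted p = 0.00460). The first 2 of these pairs kept their calls in all 9 alternative fits. The third lost its call without control library 1 (-0.34, adjusted p = 0.0936), knockdown library 1 (-0.42, 0.168) or knockdown library 2 (-0.48, 0.0807). The fourth pair, with the bin of SLC12A7 100 kb away, had 2.61 and 3.43 CPM in control and 2.41 and 2.63 CPM in the knockdown, and the groups overlapped (-0.26, adjusted p = 0.36). The surroundings of TERT moved with it. All 14 listed flanking bins were lower under both scalings, with a median log2 ratio of -0.45 (-0.25 with the trend removed), so the decrease was not limited to the gene.

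At LMO1 the direction of the within-bin contacts depended on the scaling. The gene lies on chromosome 11 (8224309 to 8268787, minus strand) over 2 bins. Within the bin of its end (8200001 to 8250000) contacts were 98.4 and 104 CPM in control and 89.8 and 89.2 CPM in the knockdown. Within the start bin (8250001 to 8300000) they were 82.4 and 82.8 CPM in control and 75.2 and 75.1 CPM in the knockdown. The groups did not overlap in either bin, yet with TMM scaling the first passed as lower (-0.18, SE 0.05, adjusted p = 0.0136) and with the trend removed both passed as higher (0.17, adjusted p = 0.000218; 0.17, adjusted p = 0.000546). The start bin had -0.14 with TMM scaling (adjusted p = 0.0716). Contacts between the 2 bins were 21.4 and 20.4 CPM in control, above 99.0% of the 19792 listed pairs of adjoining bins, and 17.7 CPM in both knockdown libraries. They fell under both scalings (-0.24, SE 0.07, adjusted p = 0.00841; -0.20 with the trend removed, adjusted p = 0.0438). The calls with TMM scaling were lost without knockdown library 1 (-0.18, adjusted p = 0.305 within the bin; -0.24, 0.146 between the bins) or 2 (-0.17, 0.307; -0.24, 0.135). Without control library 1 or 2 the start bin passed (adjusted p = 0.00700 and 0.0300). With the replicate numbers as a block 4 pairs of LMO1 passed in place of 2. The 10 other pairs, several with bins of STK33, RIC3 and TUB, did not pass with TMM scaling.

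LIN28B and BARD1 gave no pair past the threshold. LIN28B spans 146 kb of chromosome 6 (104937026 to 105083332) and 4 bins, whose within-bin control levels ran from 4.90 to 13.4 CPM. Its start bin had 13.2 and 13.6 CPM in control and 13.6 and 13.1 CPM in the knockdown, with overlapping groups and a log2 ratio of 0.00 (-0.00383, SE 0.08, adjusted p = 0.984). The largest difference was in the contact of its last bin with the adjoining bin of POPDC1, at 1.31 and 1.45 CPM in control and 2.33 and 1.79 CPM in the knockdown. Both knockdown libraries were higher there, but the pair did not pass (0.57, SE 0.22, adjusted p = 0.0637). Contacts of the start bin with the adjoining bin of HACE1, a ubiquitin ligase gene also linked to neuroblastoma risk, were 2.01 and 2.05 CPM in control and 2.55 and 2.18 CPM in the knockdown (0.22, adjusted p = 0.512). Of the 6 pairs 0 passed in edgeR and 0 in DESeq2, and 2 had an unadjusted p under 0.05 in edgeR.

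BARD1 spans 84.0 kb of chromosome 2 (214725646 to 214809683, minus strand) and had only its 3 within-bin pairs in the table. Its start bin (214800001 to 214850000) had 10.5 and 10.4 CPM in control and 9.56 and 9.15 CPM in the knockdown (-0.16, SE 0.09, adjusted p = 0.254). The middle bin had 1.68 and 1.43 CPM in control and 2.13 and 2.17 CPM in the knockdown (0.47, SE 0.22, adjusted p = 0.134), and the bin of the gene's end 3.63 and 3.97 CPM in control and 2.95 and 3.07 CPM in the knockdown (-0.34, SE 0.16, adjusted p = 0.151). The groups were apart in all 3, in different directions, and they were apart in 56.1% of all listed pairs. By edgeR and DESeq2 0 passed, and 2 had an unadjusted p under 0.05 in edgeR. None of the 19 listed flanking bins of BARD1 differed under either scaling. Their median control level was 4.08 CPM, so small differences there could be missed. The standard errors of the 2 weaker bins of the gene were 0.16 and 0.22, against 0.06 within the TERT bin.

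Set against their level of contact, the within-bin pairs of these genes divided into groups. With TMM scaling, 8 of the 10 member pairs at 50 CPM or more in control were lower, at RET, CCND1, TERT, MYCN, LMO1 and ALK, and 87.5% of all within-bin pairs at that level were lower. With the trend removed 2 of them stayed lower, the second bin of RET and that of TERT, against a background of 21.3%. Higher without the trend were 3 of the 10, both bins of LMO1 and the ALK bin at 29250001 (0.25, adjusted p = 2.76e-06), against 14.1%. Among within-bin pairs at 10 to 30 CPM, where most bins of ALK lie, 7.56% of all pairs were higher and 8.97% lower with TMM scaling, and 10.2% higher and 5.23% lower with the trend removed. Summed over the bins of each gene, within-bin contacts went from 274 ± 12.8 to 199 ± 1.24 CPM at RET (SD, n = 2 per group), from 158 ± 7.47 to 125 ± 2.23 CPM at CCND1 and from 434 ± 1.84 to 447 ± 3.75 CPM at ALK. The log2 ratios of these sums were -0.46 at RET, -0.33 at CCND1 and 0.04 at ALK, and -0.06, -0.05 and 0.18 with the trend removed.

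**Figure D5:**
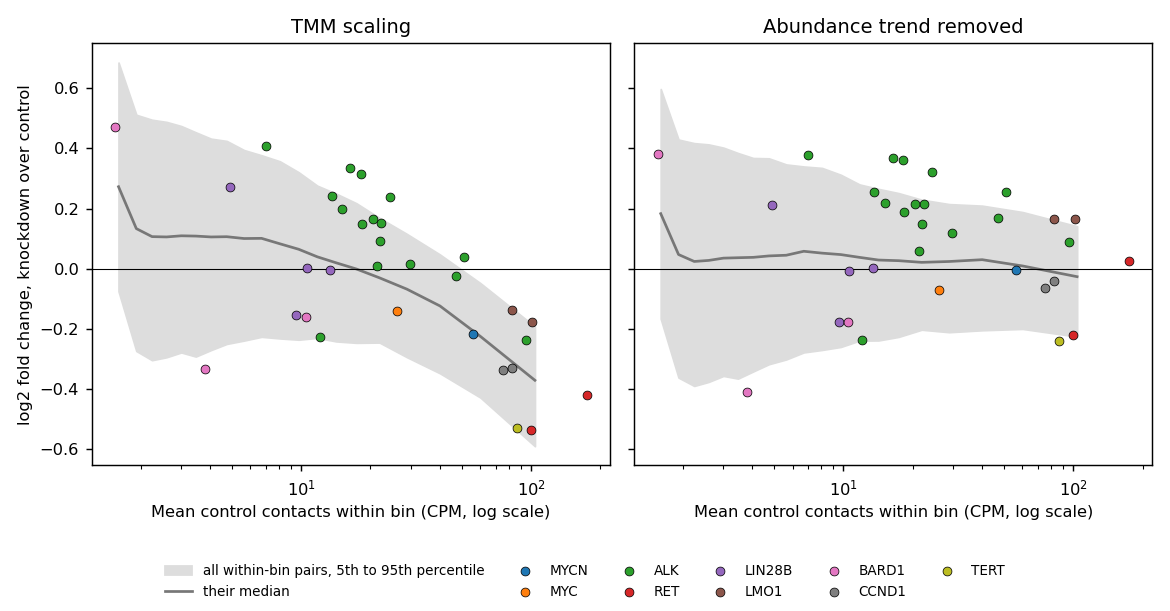
Log2 fold change of the 32 within-bin pairs of the 9 genes against the mean control level (CPM, log axis), with TMM scaling on the left and the abundance trend removed on the right. The grey band is the 5th to 95th percentile of all within-bin pairs in 20 classes of level and the grey line their median. The band falls with level on the left, where MYCN and the bins of CCND1 lie near its median and those of LMO1 near its upper edge. On the right several ALK bins lie above the band, and TERT and the second bin of RET lie near its lower edge.

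Other genes had start bins with nearly the same within-bin levels in the 4 libraries. By Euclidean distance over the log2 CPM of the 4 libraries, among 13749 to 14833 protein-coding genes on other chromosomes, the start bin most like that of TERT was that of IL17REL (83.7 and 92.7 CPM in control, 60.0 and 60.5 CPM in the knockdown). For RET it was SH2B2 (168, 175, 128 and 128 CPM) and for CCND1 the shared bin of LTBP4 and SHKBP1 (72.2, 79.0, 59.6 and 59.3 CPM). ZNF282 was nearest to MYCN and SLC60A1 to LMO1. SLC60A1 had a log2 ratio of -0.14 with TMM scaling, against 0.16 once the trend was removed. The knockdown libraries were part of the match, so like levels and like ratios follow from the choice of these genes. SETD2, PPP2R5A and IFT70B were nearest to ALK, MYC and LIN28B, and the shared bin of DOP1A and UBE3D to BARD1. The distances ran from 0.0179 for CCND1 to 0.131 for MYC, on a log2 scale.

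Genes that act with the 9 were touched to varying degrees, and of all 18699 protein-coding genes that overlap the listed pairs 57.4% had a differing pair, 41.6% only lower ones and 11.8% only higher ones. With the trend removed these shares were 37.8%, 23.4% and 12.3%. Of 13 ligands and co-receptors of ALK and RET, 12 overlapped one, 9 only lower, 2 only higher and 1 both. The bin of MDK, the ligand midkine, had 156 and 173 CPM in control and 118 and 120 CPM in the knockdown (log2 ratio -0.47, SE 0.06, adjusted p = 2.63e-12), but -0.04 with the trend removed (adjusted p = 0.464), and it also holds DGKZ, CHRM4 and AMBRA1. A pair at GFRA2, a RET co-receptor, rose by 0.50 (adjusted p = 0.00619; 0.44 with the trend removed, adjusted p = 0.0288), and contacts within the bin of ALKAL1, an ALK ligand, by 0.44 (adjusted p = 0.0222; 0.0739 with the trend removed). After removal of the trend 6 of the 13 had a differing pair, where 37.8% of all genes did.

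Of 16 partner and turnover genes of MYC and MYCN, 14 overlapped a differing pair, 11 only lower, 2 only higher and 1 both (9 of 16 with the trend removed). A pair at MLXIP, a glucose-responsive factor of the extended MYC network, fell by 0.89 on the log2 scale (SE 0.23, adjusted p = 0.00229) and fell by 0.98 with the trend removed. A pair at TRRAP, a scaffold that MYC recruits, fell by 0.66 (adjusted p = 0.0264; 0.0157 with the trend removed), and one at MXI1, a MAX-binding antagonist of MYC, rose by 0.64 (adjusted p = 0.0237; 0.0732 with the trend removed). The MLXIP and TRRAP pairs had 1.14 and 1.42 CPM in the knockdown, and the MXI1 pair 1.56 CPM in control. At such levels the listing of abundant pairs favours these directions. Of 13 cyclin D and cell cycle genes 9 overlapped a differing pair, 8 only lower and 1 only higher. Contacts within a bin of RB1, the retinoblastoma tumour suppressor that cyclin D kinases act on, were 15.1 and 17.1 CPM in control and 11.8 and 11.3 CPM in the knockdown (-0.49, SE 0.08, adjusted p = 5.81e-07; -0.48 with the trend removed, adjusted p = 7.01e-06). Those within the bin of CDKN2A, which encodes an inhibitor of that step, were 25.4 and 28.7 CPM in control and 20.1 and 20.3 CPM in the knockdown (-0.42, SE 0.07, adjusted p = 6.22e-08; -0.36 with the trend removed). Both genes lay lower in each knockdown library. A pair at MDM4, an inhibitor of p53, rose by 0.40 (adjusted p = 0.0223; 0.0762 with the trend removed). After removal of the trend 4 of the 13 had a differing pair.

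Of 9 genes of the BARD1 complex and homologous recombination, 3 overlapped a differing pair, BAP1 with a lower one (-0.63, adjusted p = 0.0342) and BRIP1 and CHEK2 with higher ones (0.56 and 0.46, adjusted p = 0.0299 and 0.0380). BAP1 also passed after removal of the trend (-0.72, adjusted p = 0.0204), while BRIP1 (0.48, 0.0832) and CHEK2 (0.39, 0.104) did not, and 2 of the 9 genes had a differing pair. Of 14 telomerase and telomere genes 13 had a listed pair and 5 a differing one, all lower. That was 38.5% of the 13, against 57.4% of all genes, of which 41.6% had only lower ones. After removal of the trend 3 of the 13 (23.1%) had a differing pair, against 37.8% of all genes. A pair at ACD, a shelterin subunit, went from 3.60 ± 0.543 to 1.98 ± 0.0326 CPM (-0.86, SE 0.18, adjusted p = 0.000116; -0.94 with the trend removed), in a bin it shares with CARMIL2 and other genes. The calls for RTEL1, a telomere helicase, and NHP2, a telomerase-associated protein, were -0.57 (adjusted p = 0.0409; -0.65 with the trend removed) and -0.42 (adjusted p = 1.60e-10; -0.11 with the trend removed). Of 21 partners of LIN28B and LMO1, 17 overlapped a differing pair, 9 only lower, 6 only higher and 2 both (10 with the trend removed). A pair at LDB1, the protein through which LMO factors are bridged to DNA-bound complexes, had -0.75 (SE 0.18, adjusted p = 0.00124), one at IGF2BP1, an RNA-binding protein, 0.76 (adjusted p = 0.00236) and one at DIS3L2, an exonuclease that degrades let-7 precursors, -0.67 (adjusted p = 0.0231). These 3 pairs also passed after removal of the trend (-0.82, 0.68 and -0.76, adjusted p = 0.000462, 0.0110 and 0.0139). Of 24 other predisposition and driver genes of neuroblastoma 13 overlapped a differing pair, 7 only lower, 4 only higher and 2 both (12 with the trend removed). Contacts within a bin of ATRX, a chromatin remodeller lost in some neuroblastomas, were 2.01 and 2.16 CPM in control and 3.31 and 3.50 CPM in the knockdown (0.71, SE 0.18, adjusted p = 0.00229). A pair at CHD5, a candidate tumour suppressor, had -0.67 (adjusted p = 0.000252), and one at ARID1A, a subunit of the SWI/SNF remodelling complex, 0.66 (adjusted p = 0.00726). The pairs of ATRX, CHD5 and ARID1A passed after removal of the trend as well (0.63, -0.74 and 0.58, adjusted p = 0.0105, 9.46e-05 and 0.0268). Rises from weak control levels, as at IGF2BP1 (1.77 CPM) and ATRX (2.08 CPM), carry the limit of listing given above. Falls to weak knockdown levels, as at DIS3L2 (1.38 CPM) and BAP1 (1.43 CPM), carry it too. The median log2 ratio over the pairs of each list ran from -0.09 for the MYC and MYCN partners to 0.08 for the BARD1 complex, beside 0.02 over all pairs. Genes overlap different numbers of pairs and many share bins, so the counts describe bins rather than single genes.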

How the data were processed

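Contacts of SH-SY5Y (2 control libraries, 2 with TDP-43 knocked down) were read from the authors' deposited table of raw contact counts per pair of 50 kb bins of hg38. HiC-Pro and hg38 are named, without versions, per the submitters' processing notes. The titles end in "merged", with no word on what was merged. Per the file headers the table also holds the authors' log2 fold change and log2 abundance, an F statistic (a score) and p-values. It lists abundant pairs only, so its totals are not the depth of the libraries. The test on all 89239 pairs was the quasi-likelihood test of edgeR 4.0.16 after TMM scaling, run in R 4.3.3 beside limma 3.58.1. The filter filterByExpr removed 0 pairs, and the common coefficient of variation was 9.01%. Alternatives were DESeq2 1.42.0, a loess offset per library (span 0.3), no filter, thresholds of 0.01 and 0.1, a replicate block, each library left out and the authors' own values. The fits were tested on simulated data. Gene bodies and promoters came from RefSeq, GRCh38.p14. A bin belonged to a gene if it overlapped the gene body. Named were, for each gene, the within-bin pair of its start, the pairs with the smallest adjusted p and the largest change each way, and all pairs past the threshold. Up to 3 genes per list of related genes were named by size of change. Further pairs in the text were chosen after their values were seen. The members and lists were chosen with earlier results of these data known. Control and knockdown libraries of the same number did not deviate together (r = 0.0214 across pairs), so the numbers were not taken as pairing. Python 3.11.15, numpy 2.4.6, pandas 2.3.3 and matplotlib 3.10.9 were used.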

Additional observations from a re-analysis of the deposited data

How the results depend on the processing

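All listed pairs past the threshold numbered 14469, 8738 at the 0.01 threshold and 4910 to 16764 with 1 library left out. Pairs of the 9 genes numbered 23, or 13 with start bins only, 13 within a bin, 10 between bins, and 12 to 24 with 1 library left out. Lower pairs numbered 15 (7 without the trend and in the authors' deposited table, 9 to 16 with 1 library left out). Higher pairs numbered 8 (14 without the trend, in the authors' deposited table and at the 0.1 threshold, 3 to 9 with 1 library left out). By gene, the trend removed and the authors' deposited table each gave 1 at MYCN, 2 at RET and 1 at CCND1. DESeq2 and the 0.01 threshold gave 2 at RET, and the latter 1 at LMO1. The 0.1 threshold gave 13 at ALK, 1 at LIN28B and 4 at LMO1. With 1 library left out the ranges were 1 to 2 at MYCN, 0 to 1 at MYC, 2 to 9 at ALK, 3 to 4 at RET, 0 to 4 at LMO1 and 2 to 3 at TERT, with CCND1 at 3 and LIN28B and BARD1 at 0 throughout. Without knockdown library 1 or 2 each lone library is assumed to vary like the others.

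With the replicate block 4 pairs passed at LMO1 in place of 2, and no other count by gene moved by more than 1.5 times. The numbers are not shown to pair the libraries.

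Among the named pairs past the threshold with TMM scaling or in the alternative, signs reversed without the trend and in the authors' deposited table: ALK within 29200001 (0.0890 and 0.0890), RET within 43050001 (0.0262 and 0.0263), LMO1 within 8200001 (both 0.17) and within 8250001 (both 0.17). Both fits leave out the abundance trend by construction. Some pairs that passed in neither fit also changed sign, among them MYC within its bin (0.0195 without knockdown library 2).

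Genes of the related lists with a differing pair numbered, without the trend and by the authors' deposited table, 6 and 7 (ALK and RET ligands), 9 and 9 (MYC partners), 4 and 4 (cell cycle), 3 and 3 (telomere) and 10 and 10 (LIN28B and LMO1 partners). At the 0.01 threshold they numbered 1 (BARD1 complex, also with DESeq2), 3 (telomere) and 10 (LIN28B and LMO1 partners). With 1 library left out they ranged from 7 to 17 (predisposition genes), 8 to 13 (ligands), 9 to 15 (MYC partners), 4 to 10 (cell cycle), 1 to 3 (BARD1 complex), 3 to 6 (telomere) and 8 to 17 (LIN28B and LMO1 partners).

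Log2 ratios of the summed within-bin contacts were, with the trend removed, -0.00344 at MYCN, 0.18 at ALK, -0.0607 at RET, 0.17 at LMO1, -0.16 at BARD1, -0.0519 at CCND1 and -0.24 at TERT, and with DESeq2 size factors 0.0296 at ALK and -0.14 at BARD1. With 1 library left out they ranged from -0.28 to -0.16 at MYCN, -0.32 to 0.0195 at MYC, 0.0350 to 0.0521 at ALK, -0.51 to -0.41 at RET, -0.0565 to 0.0613 at LIN28B, -0.18 to -0.14 at LMO1, -0.13 to -0.11 at BARD1, -0.38 to -0.28 at CCND1 and -0.60 to -0.45 at TERT. No filter changed none of these values, since it removed no pair. Weak pairs, with standard errors above 0.2, limit what can be seen.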
